A study of Homo sapiens with 16 samples.

Results

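The first hours of TGF-beta treatment were examined by comparing A549 cells at 6 h of treatment with A549 cells at 0 h. A549 is an established human lung adenocarcinoma line with alveolar epithelial features. Every culture was of this line, with no genetic change named in the labels, and the 0 h cells stand for the state before TGF-beta. For the TGF-beta isoform and its dose, nothing was given in the sources used here. The labels do not state separate cultures for the replicates, and p-values then reflect the spread of these libraries, which may be technical. The comparison used the 4 RNA-seq libraries of these times, replicate 1 and replicate 2 at each, out of 16 in a course that also had libraries at 12, 24, 36, 48, 72 and 96 h. No untreated cultures were sampled at the later times, so TGF-beta and time in culture cannot be told apart. Libraries were chosen by their time labels, and 6 h was compared with 0 h within each replicate number. Within the comparison, first responders were defined as genes that passed the test and differed by at least 1 on the log2 scale, in the same direction, in both replicates.

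TGF-beta binds a complex of type I and type II receptor kinases, which phosphorylate SMAD2 and SMAD3. These join SMAD4, enter the nucleus and act at promoters and enhancers, often beside AP-1 factors, on genes for matrix, protease inhibitors and the pathway's own inhibitors. In lung epithelial cells the longer programme is an epithelial to mesenchymal transition, in which junction proteins such as E-cadherin are lost and mesenchymal and matrix genes gained.

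Values are TPM (transcript abundances corrected for gene length and scaled to a fixed total in each library). In the deposited tables, 6 small structural RNAs took 51.8% of the TPM in both 0 h libraries, and 60.5% and 56.3% in the 6 h libraries. All values below were therefore rescaled without them, so that each library again summed to 1000000. TPM keep no read totals, so the depth of the libraries is unknown. Genes listed at 0 numbered 30029 and 30138 at 0 h, and 31187 and 31141 at 6 h. Those at 1 rescaled TPM or more numbered 17408 and 18146 at 0 h, and 15383 and 16132 at 6 h. The part of this gap in the results was not tested. The line's expected markers were present. The keratins KRT8 and KRT18 stood at 3354 to 5818 TPM in the 4 libraries, and the aldehyde dehydrogenase ALDH1A1 at 8071 to 8903. CDKN2A and CDKN2B, which lie in a region A549 has lost, were listed at 0 in all 4, while MTAP, of the same region, was at 8.23 to 13.8. The epithelial adhesion gene EPCAM was low, at 6.51 to 9.37. Among markers of other cell types, 9 of 12 fibroblast, 2 of 8 endothelial, 6 of 12 leukocyte and 0 of 7 erythroid genes passed the filter on low values, and none was called. Their summed levels were 32.5 to 47.5 TPM for fibroblast, 2.59 to 5.35 for endothelial, 13.8 to 25.5 for leukocyte and 0.436 to 0.984 for erythroid genes. Their part in the results was not tested.

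Among 21216 genes tested, 74 were called higher at 6 h (0.349%) and 67 lower (0.316%), by limma on log2(TPM + 1) with the replicate number as a block, at a Benjamini-Hochberg adjusted p below 0.05. First responders numbered 58 higher and 58 lower, 0.273% of tested genes in each direction. The rises had a median log2 fold change of 1.94, with a range of 1.04 to 4.24. The falls had a median of -1.62 and a range of -3.26 to -1.05. The median over all tested genes was -0.25 (-0.27 in replicate 1 and -0.21 in replicate 2), so a gene near -0.25 moved with the bulk. Across all tested genes, the differences in replicate 1 and replicate 2 had a Spearman correlation of 0.58, and across the 12124 genes averaging 5 TPM or more at either time it was 0.77. Genes are not independent replicates, and this is a description.

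The calls rest on few libraries. Without the replicate block, 5 genes were called higher and 2 lower: CGB8, CLDN4, ELL2, EVA1A and IER3, and GDF15 and RP11-215G15.5. Of the 141 calls, 5 held when 0 h replicate 1 was left out and 0 when 0 h replicate 2 was. Leaving out replicate 1 of the 6 h pair kept 0, and leaving out its replicate 2 kept 4. In each of those fits a lone library stands for its time and is assumed to vary like the others. The split between directions also moved with the scale: on TPM as deposited there were 4 calls higher and 8 lower, and with libraries centred on their median log2 ratio 154 and 72. A further 121 genes were at least 1 higher in both replicates and 682 at least 1 lower without passing the test. At the edge of the definition stood MFSD12, inside with differences of 1.004 and 1.07, and ACP2, outside with 1.09 and 0.98. Among falls these were PARD6B, inside with -1.002 and -1.17, and UTRN, outside with -1.35 and -0.96.

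**Figure D1:**
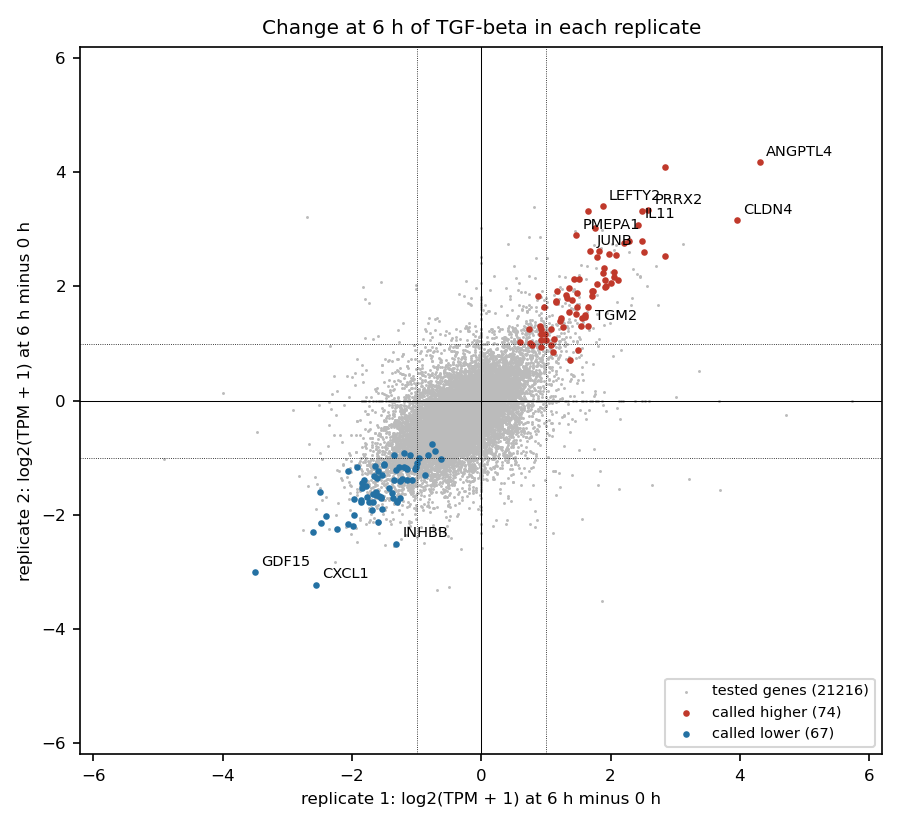
Difference in log2(TPM + 1) between 6 h and 0 h in replicate 1 (horizontal axis) and replicate 2 (vertical axis) for the 21216 tested genes. Called genes are coloured, 74 higher in red and 67 lower in blue, and dotted lines mark a difference of 1. Among called genes, ANGPTL4 and CLDN4 lie farthest to the right and GDF15 and CXCL1 farthest down, and the grey cloud is centred below 0.

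The largest rise was that of ANGPTL4. ANGPTL4, a secreted inhibitor of lipoprotein lipase and a known SMAD3 target, was at 8.30 and 6.76 TPM at 0 h, and 6 h gave 183 and 139 TPM. This was a 21.4-fold higher mean, with a log2 fold change of 4.24 (SE 0.79, limma adjusted p = 0.0392). IL11, a fibrosis-linked cytokine related to IL-6, was at 53.7 and 22.6 TPM and then at 293 and 199 TPM (2.76 ± 0.29 (SE) on the log2 scale, limma adjusted p = 0.00547). In both genes every 6 h library lay above every 0 h library. Lack of overlap between 2 and 2 libraries is weak, since an exact test cannot then go below p = 0.333. The share of all tested genes without overlap is not given, so such remarks, here and below, are descriptions.

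CLDN4, a claudin of tight junctions and so an epithelial gene, was among the largest rises. It was at 3.01 and 3.57 TPM at 0 h, and 6 h gave 61.4 and 39.8 TPM. Its mean was 15.4-fold higher (3.56 ± 0.49 (SE) on the log2 scale, limma adjusted p = 0.0171), and the call held without the replicate block. S1PR5, a receptor for sphingosine-1-phosphate, went from 2.01 and 3.79 TPM to 20.7 and 26.9 TPM. PLEK2, a pleckstrin linked to the actin cytoskeleton, went from 14.6 and 7.52 TPM to 86.2 and 58.1 TPM. NIPAL4, a membrane protein of a magnesium transporter family, stood at 6.58 and 1.41 TPM at 0 h, and 6 h gave 22.9 and 23.2 TPM. For each of these the libraries of the 2 times did not overlap.

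Several large rises began at low levels. PRRX2, a homeobox transcription factor of mesenchyme, was at 0.809 and 0.995 TPM and then at 9.85 and 19.2 TPM. LEFTY2, a secreted inhibitor of the Nodal branch of the TGF-beta family, was listed at 0 in both 0 h libraries and stood at 2.69 and 9.59 TPM at 6 h. SGCA, which encodes alpha-sarcoglycan, went from 1.35 and 1.04 TPM to 12.5 and 11.3 TPM. CCM2L, a relative of the scaffold protein CCM2, went from 0.249 and 0.0622 TPM to 5.07 and 6.43 TPM. CGB8, a beta subunit gene of chorionic gonadotropin, went from 1.72 and 0.912 TPM to 14.2 and 18.1 TPM. CGB8 and the likewise called CGB5 have near-identical copies, so the gene that gave these reads is uncertain. In all, 13 of the 58 rising first responders had a mean below 1 TPM at 0 h.

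The largest fall was that of GDF15, followed by CXCL1. GDF15, a stress-induced member of the TGF-beta family, fell from 80.0 and 94.9 TPM to 6.16 and 10.9 TPM. Its 0 h mean was 10.3-fold that at 6 h (-3.26 ± 0.39 (SE) on the log2 scale, limma adjusted p = 0.00793). CXCL1, a chemokine that draws neutrophils, fell from 45.8 and 36.7 TPM to 6.94 and 3.02 TPM (-2.89 ± 0.56 (SE) on the log2 scale, limma adjusted p = 0.0438). Its relative CXCL3 fell from 8.84 and 8.06 TPM to 0.76 and 1.05 TPM. The groups did not overlap for any of the 3.

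Other large falls were those of SDPR, PER2, DAPK1, TBL1X, INHBB and FOXA2. SDPR (CAVIN2), a coat protein of caveolae, fell from 17.4 and 24.3 TPM to 2.91 and 4.30 TPM (-2.24 ± 0.27 (SE) on the log2 scale, limma adjusted p = 0.00793). DAPK1, a kinase linked to cell death, fell from 117 and 187 TPM to 28.8 and 39.6 TPM (log2 fold change -2.10). PER2, a repressor of the circadian clock, fell from 11 and 12.5 TPM to 1.87 and 2.01 TPM. The levels at 6 h were similar in the 2 replicates for these regulators. TBL1X, a subunit of nuclear receptor corepressor complexes, fell from 25.5 and 23.5 TPM to 5.80 and 5.08 TPM. FOXA2, a transcription factor of endodermal epithelia, fell from 20.2 and 18.5 TPM to 4.84 and 4.81 TPM (-1.80 ± 0.34 (SE) on the log2 scale, limma adjusted p = 0.0392). INHBB, the beta B subunit of activin and inhibin, fell from 18.7 and 43.2 TPM to 6.92 and 6.75 TPM. The 0 h values of INHBB differed between replicates by more than its 6 h values.

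**Figure D2:**
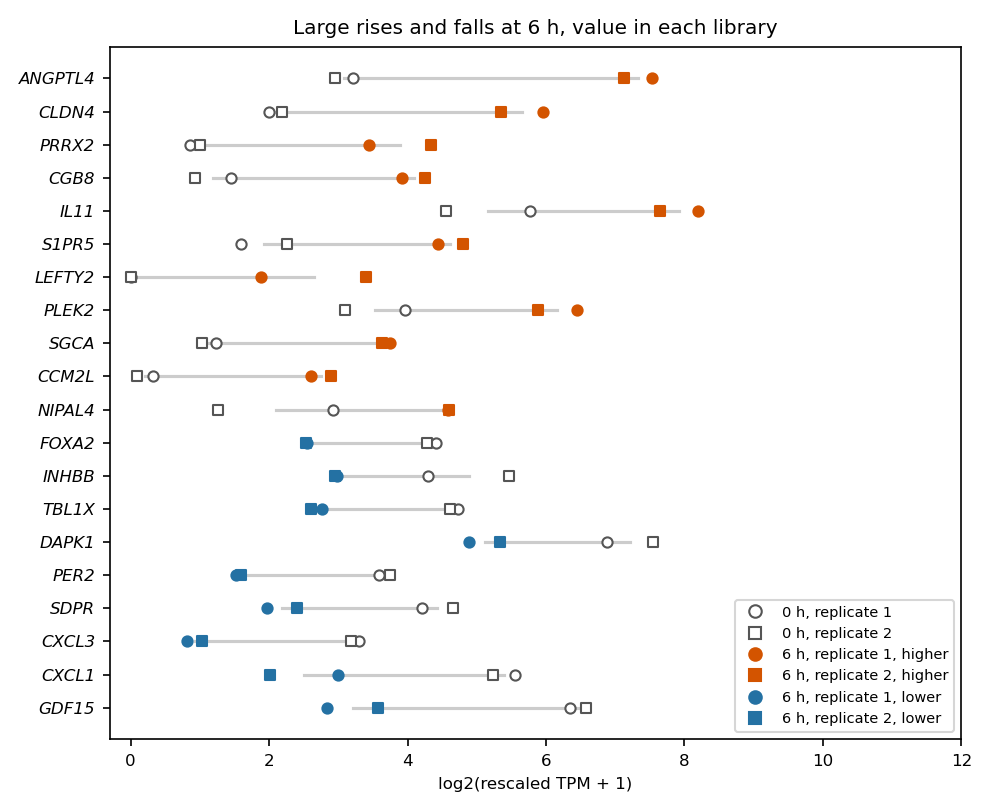
Value in each of the 4 libraries, as log2(TPM + 1), for genes with large rises (top rows) and for the largest falls that encode protein (bottom 9 rows). Open marks are 0 h, filled marks 6 h, circles replicate 1, squares replicate 2, and grey lines join the means of the 2 times. No gene shown has overlapping 0 h and 6 h values.

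The upstream sequences of 4 of these genes are shown because 3 of them are among the strongest rises and the fourth is the largest fall, and because the AP-1 subunit gene JUNB was itself a first responder. Each run is the 250 bases before the RefSeq start on GRCh38.p14. They are chr19:55370464-55370713 (minus strand) for IL11, chr7:73830746-73830995 (plus strand) for CLDN4, chr19:8363905-8364154 (plus strand) for ANGPTL4 and chr19:18385908-18386157 (plus strand) for GDF15. Capitals mark the AP-1 motif, searched as TGANTCA with any base at N, and the SMAD box CAGAC, which reads GTCTG on the other strand.
IL11: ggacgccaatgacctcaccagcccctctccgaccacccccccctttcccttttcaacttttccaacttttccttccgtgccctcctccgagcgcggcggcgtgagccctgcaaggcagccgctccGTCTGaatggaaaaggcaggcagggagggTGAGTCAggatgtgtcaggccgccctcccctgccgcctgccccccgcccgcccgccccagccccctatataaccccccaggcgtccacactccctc
CLDN4: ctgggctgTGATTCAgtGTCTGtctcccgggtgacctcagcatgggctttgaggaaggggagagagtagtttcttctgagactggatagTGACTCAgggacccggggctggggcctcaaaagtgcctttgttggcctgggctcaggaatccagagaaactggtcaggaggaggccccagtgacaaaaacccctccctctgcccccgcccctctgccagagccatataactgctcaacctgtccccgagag
ANGPTL4: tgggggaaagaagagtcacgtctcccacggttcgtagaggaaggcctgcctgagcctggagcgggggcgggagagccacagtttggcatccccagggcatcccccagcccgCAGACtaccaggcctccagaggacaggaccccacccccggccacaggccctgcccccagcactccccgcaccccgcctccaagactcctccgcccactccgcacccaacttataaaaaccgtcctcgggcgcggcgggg
GDF15: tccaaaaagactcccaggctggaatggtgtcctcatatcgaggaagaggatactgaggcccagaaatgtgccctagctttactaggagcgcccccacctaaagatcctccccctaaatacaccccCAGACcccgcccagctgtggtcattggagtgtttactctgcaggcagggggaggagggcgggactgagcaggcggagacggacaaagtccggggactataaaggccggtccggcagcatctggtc
IL11 held the letters TGAGTCA starting 96 bases before the start. CLDN4 held 2 matches, TGATTCA starting at 242 bases and TGACTCA at 161 bases. Each of the printed windows held a SMAD box, that of the falling gene GDF15 included. ANGPTL4 and GDF15 held no AP-1 match in this window. Among first responders with an entry in the table, TGANTCA was found in 8 of 62 windows of 38 rising genes (12.9%) and in 1 of 62 windows of 37 falling genes (1.61%), against 6.57% of all 35116 windows. The 8 rising genes were ADGRF4, ADGRG1, CLDN4, F3, IL11, KCTD11, MDFI and TRIM2, and the falling gene was NEDD4L. CAGAC on either strand was in 45.2% and 37.1% of the windows, against 38% of all. Both motifs were searched on both strands, and their letters can overlap only at the end of a match, which none does in the windows printed. A gene with several starts gives several windows, and a match is a description, not a bound site.

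Counts of called list members, here and below, stand beside 0.349% of all tested genes called higher and 0.316% called lower. Of the pathway's own parts, the receptors and SMADs gave no call. Among 11 tested receptors the median log2 fold change was -0.22, near that of all genes, with 4 above 0 in both replicates and 7 below 0. The type I receptor gene TGFBR1 was at 64.4 and 41.2 TPM and then at 157 and 111 TPM (log2 fold change 1.34, limma adjusted p = 0.0907). The type II receptor gene TGFBR2, named after its values were seen, was at 77.9 and 94.3 TPM and then at 36.8 and 30.7 TPM (log2 fold change -1.33, limma adjusted p = 0.118). Neither gene passed the test, and that the libraries of each did not overlap between times is a description only. Among 5 tested SMADs the median was -0.38. SMAD3, a direct carrier of the signal, was at 122 and 162 TPM and then at 69.1 and 88.0 TPM (limma adjusted p = 0.124).

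Of 18 feedback regulators, PMEPA1 alone was called. PMEPA1 encodes a membrane protein that binds and restrains SMAD2 and SMAD3, and it rose from 152 and 50.3 TPM to 423 and 381 TPM (2.18 ± 0.32 (SE) on the log2 scale, limma adjusted p = 0.0233). The median of the list was 0.34, and 12 members had a positive fold change. The inhibitory SMAD7 was at 34.0 and 17.1 TPM and then at 50.4 and 48.5 TPM (log2 fold change 1.002, limma adjusted p = 0.118). SKIL, a SMAD corepressor, was at 128 and 96.5 TPM and then at 258 and 264 TPM (limma adjusted p = 0.2). For SMAD7 and SKIL every 6 h value lay above every 0 h value, though the test was not passed. The corepressor TGIF1 was at 128 and 147 TPM and then at 109 and 145 TPM, with overlapping groups, and SMAD6 and SMURF1 had log2 fold changes of -0.39 and 0.22.

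The list of 30 SMAD3 target genes had a median log2 fold change of 1.31, against -0.25 over all tested genes. Of these, 29 had a positive fold change and 26 were higher in both replicates. Members called higher were 5 of 30, ANGPTL4, IL11, JUNB and PTHLH among them, against 0.349% of all tested genes. None was called lower, against 0.316%. PTHLH, the gene of parathyroid hormone-related protein, went from 11.2 and 4.29 TPM to 21.4 and 17.8 TPM. It was called at a log2 fold change of 1.35 but missed the size asked of replicate 1. The list was written with earlier results of these data known, so its direction is not independent evidence.

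Immediate early genes were mixed. Of 34 tested, 3 were called higher and 2 lower, against 0.349% and 0.316% of all tested genes. Their median log2 fold change was -0.21, and the replicates differed in sign, at -0.56 in replicate 1 and 0.14 in replicate 2. JUNB, an AP-1 subunit, rose from 97.1 and 51.4 TPM to 314 and 321 TPM (2.15 ± 0.40 (SE) on the log2 scale, limma adjusted p = 0.0392). IER3, a survival gene, rose from 117 and 118 TPM to 370 and 370 TPM (1.64 ± 0.22 (SE) on the log2 scale, limma adjusted p = 0.0141). Its replicates were nearly equal at each time. CSRNP1, a nuclear protein, rose from 18.9 and 11.3 TPM to 43.4 and 39.5 TPM. DUSP4, a phosphatase that switches off MAP kinases, fell from 100 and 113 TPM to 40.1 and 32.3 TPM (log2 fold change -1.53). BTG1, an antiproliferative gene, was called lower at a log2 fold change of -0.83, from 92.8 and 78.0 TPM to 59.8 and 37.8 TPM. Not every member of this list had like replicates at 0 h, and the following values were chosen after they were seen. FOS was at 81.1 TPM in 0 h replicate 1 and at 4.02 TPM in 0 h replicate 2, then at 1.72 and 1.46 TPM at 6 h. EGR1 was at 18.7 and 0.207 TPM, then at 0.228 and 0.320 TPM. Both genes were thus high in 0 h replicate 1 alone among the 4 libraries, and neither was called.

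Regulators tied to the epithelial to mesenchymal transition gave 1 call in each direction among 22 tested, with a median of -0.25. ETS2, an ETS family factor, rose from 60.2 and 33.4 TPM to 164 and 150 TPM (1.78 ± 0.26 (SE) on the log2 scale, limma adjusted p = 0.0233), and the fall was FOXA2. SNAI1, which encodes the E-cadherin repressor Snail, was at 1.85 and 0.643 TPM and then at 5.67 and 2.72 TPM (log2 fold change 1.20, limma adjusted p = 0.104). The repressor gene ZEB1 was at 28.5 and 27.2 TPM and then at 28.0 and 28.8 TPM (0.03 ± 0.38 (SE) on the log2 scale). Of the 4 ID genes, which encode inhibitors of basic helix-loop-helix factors, none was called. ID1 was at 139 and 174 TPM and then at 348 in both replicates (log2 fold change 1.16, limma adjusted p = 0.0516). ID3 was at 145 and 116 TPM and then at 212 and 272 TPM, while ID2 was at 50.8 and 54.0 TPM and then at 25.1 and 37.5 TPM. The groups of each of these 3 ID genes did not overlap, and ID2 stood on the other side of 0 from ID1 and ID3.

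Among 25 secreted ligands and antagonists of the TGF-beta family, 2 were called higher and 2 lower, against 0.349% and 0.316% of all tested genes. NOG, the BMP antagonist noggin, rose from 0.872 and 0.394 TPM to 5.17 and 3.98 TPM. FSTL3, which binds activin, rose from 85.1 and 76.7 TPM to 239 and 241 TPM (1.56 ± 0.31 (SE) on the log2 scale, limma adjusted p = 0.0456). The falls were GDF15 and INHBB. Within this list the called rises were antagonists and the called falls were a ligand and a ligand subunit. LEFTY2, an inhibitor outside this list, was also called higher. With so few called members this is a description.

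Of 22 tested chemokines and NF-kB targets, 3 were called lower and none higher, against 0.316% and 0.349% of all tested genes. Their median was -0.25. Beside CXCL1 and CXCL3, CSF1, the growth factor of macrophages, fell from 12.4 and 12.7 TPM to 2.74 and 3.75 TPM (log2 fold change -1.68). CXCL2, a relative of CXCL1, was at 18 and 14.6 TPM and then at 1.80 and 2.22 TPM without passing the test (limma adjusted p = 0.126). The 14 EGF family ligands and receptors gave no call, and their median was -0.86, with 12 lower in both replicates. The ligand AREG was at 46.2 and 48.3 TPM and then at 7.55 and 13.8 TPM (limma adjusted p = 0.144). EREG was at 44.9 and 32.9 TPM and then at 7.65 and 9.54 TPM (limma adjusted p = 0.0635). The values of CXCL2, AREG and EREG were picked after they were seen, and none had overlapping groups.

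Genes of pericellular proteolysis gave 4 calls higher and none lower among 25 tested, against 0.349% and 0.316% of all tested genes. Their median was 0.48. PLAUR, the receptor of urokinase, rose from 31.3 and 35.5 TPM to 90.5 and 66.6 TPM. ADAM19, a metalloprotease, rose from 11.5 and 3.28 TPM to 47.8 and 24.3 TPM (2.27 ± 0.27 (SE) on the log2 scale, limma adjusted p = 0.00793). TIMP4, an inhibitor of metalloproteases, rose from 9.07 and 9.49 TPM to 21 and 21.1 TPM. TGM2, the cross-linking enzyme transglutaminase 2, was the 1 call among 20 collagen modifying enzymes. It rose from 142 and 63.7 TPM to 451 and 158 TPM (1.48 ± 0.18 (SE) on the log2 scale, limma adjusted p = 0.00793), with an offset between replicates at both times.

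Matrix proteins themselves were not called at 6 h. The 19 tested type IV collagens and laminins had a median of -0.49 and no call. COL4A1 was at 69.2 and 29.6 TPM and then at 172 and 136 TPM (log2 fold change 1.73, limma adjusted p = 0.0718), and COL4A2 at 105 and 53.7 TPM and then at 121 and 92.5 TPM. The 0 h and 6 h libraries of COL4A1 were apart, and those of COL4A2 overlapped. FN1, fibronectin, was at 280 and 173 TPM and then at 370 and 147 TPM (0.08 ± 0.24 (SE) on the log2 scale). Of 26 contractile and focal adhesion genes, 3 were called higher and none lower, against 0.349% and 0.316% of all tested genes. Their median was 0.21. CNN1, calponin of smooth muscle, rose from 1.25 and 0.663 TPM to 9.40 and 10.3 TPM. FERMT2, which encodes the integrin activator kindlin-2, rose from 63.6 and 44.3 TPM to 151 and 123 TPM, and PDLIM7, an actin-bound LIM protein, from 52.0 and 27.2 TPM to 111 and 66.2 TPM. No mesenchymal marker was called among 13 tested. VIM, vimentin, was at 1148 and 1026 TPM and then at 1229 and 1134 TPM, and CDH2, N-cadherin, at 76.4 and 34.2 TPM and then at 73.8 and 44.0 TPM.

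Among 37 epithelial junction and identity genes, CLDN4 rose and PARD6B fell, with a median of -0.21. PARD6B, a cell polarity gene, went from 20.9 and 26.2 TPM to 9.96 and 11.1 TPM (-1.09 ± 0.22 (SE) on the log2 scale, limma adjusted p = 0.0492). CDH1, E-cadherin, was at 30.1 and 57.1 TPM at 0 h, and 6 h gave 13.6 and 28.5 TPM. It was lower in each replicate, with a log2 fold change of -1.04 (SE 0.34), but was not called (limma adjusted p = 0.166). Among 9 genes of caveolae SDPR was the 1 call. CAV1, caveolin 1, was at 520 and 393 TPM and then at 246 and 293 TPM (limma adjusted p = 0.2).

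In metabolism and stress defence the calls were few. Of 32 NRF2 targets, 2 were called lower and none higher, against 0.316% and 0.349% of all tested genes. Their median was -0.23. GCLC, the catalytic subunit for the first step of glutathione synthesis, fell from 187 and 188 TPM to 64.9 and 85.5 TPM (-1.32 ± 0.19 (SE) on the log2 scale, limma adjusted p = 0.0231). NR0B1, an orphan nuclear receptor, fell from 26.7 and 38.1 TPM to 10.8 and 14.1 TPM. SLC2A1, the glucose transporter GLUT1, rose from 91.1 and 69.2 TPM to 174 and 146 TPM, and was the 1 call among 22 glycolysis and hypoxia genes. Among 22 cytostatic genes, MXI1, an antagonist of MYC, fell from 15.6 and 13.9 TPM to 4.71 and 5.01 TPM and was the 1 call. CDKN2B, a cyclin-dependent kinase inhibitor that TGF-beta induces in other epithelial cells, could not be followed here because it was listed at 0. GDF15 was the 1 call among 19 p53 targets.

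Some lists had medians away from 0 without a called member. The 24 genes of sterol synthesis and uptake had a median of -0.69, with 22 lower in both replicates. HMGCS1, an enzyme early in the pathway, was at 237 and 191 TPM and then at 93.8 and 113 TPM (limma adjusted p = 0.207), values picked after they were seen. The 13 mitochondrially encoded transcripts had a median of -1.11, with 11 lower in both replicates. At 0 h they summed to 18878 and 17690 TPM, and in the 6 h libraries to 12813 and 10082 TPM. These medians stayed below 0 on TPM as deposited and with centred libraries. The 76 ribosomal protein genes had a median of 0.14, which became -0.08 on TPM as deposited. The 30 DNA replication genes had a median of -0.38, with 25 lower in both replicates and values of -0.60 in replicate 1 and -0.15 in replicate 2. With no call, these are descriptions beside the -0.25 of all tested genes.

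**Figure D3:**
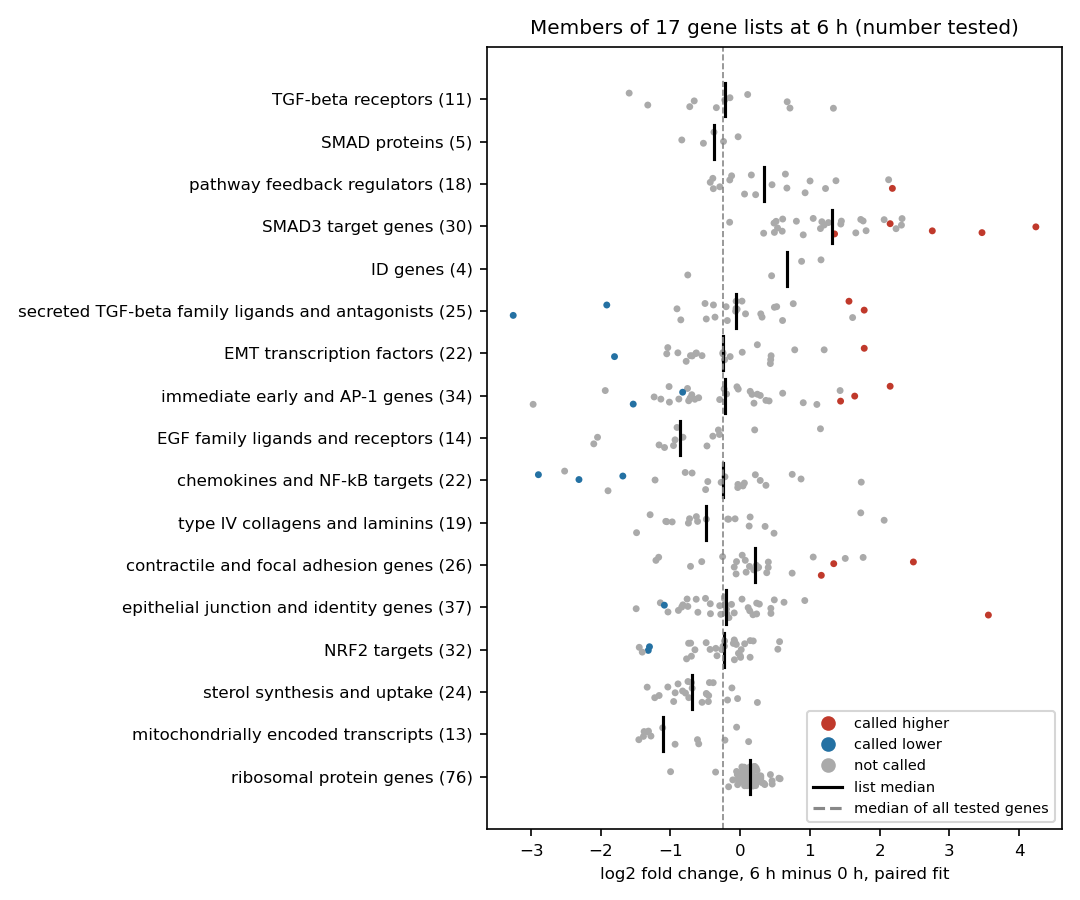
Log2 fold change at 6 h of each tested member of 17 gene lists, with called genes coloured, list medians as black bars and the median of all tested genes (-0.25) as a dashed line. SMAD3 target genes stand to the right with a median of 1.31, and mitochondrially encoded transcripts to the left with a median of -1.11.

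The next time, 12 h, was used to place the first responders. In the test of 12 h against 6 h, 0 of 21216 genes were called by limma (0%), and 3142 had an unadjusted p below 0.05. Without the replicate block 1 gene was called, without the filter on low values 35, and with the libraries of these 2 times alone 567. The rising first responders had a median log2 fold change against 0 h of 1.94 after 6 h, 2.34 after 12 h, 2.24 after 24 h and 1.04 by the 96 h sample. The falling ones had medians of -1.62, -1.27, -1.31 and -1.14 in the same order. All of these comparisons share the 0 h libraries, so they are given side by side only. From 6 to 12 h the median difference was 0.33 for the rising and 0.22 for the falling first responders. Of the 58 in each direction, 14 and 17 had an unadjusted limma p below 0.05, beside 3142 of all 21216 tested genes. These genes were chosen by their 6 h values, which this difference shares, so the values are descriptions and no test of later change.

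Individual courses differed in shape. FSTL3 was at 239 and 241 TPM after 6 h, at 218 and 242 after 12 h and at 210 and 245 after 24 h. S1PR5 was at 20.7 and 26.9 TPM after 6 h, at 18.3 and 27.9 after 12 h and at 19 and 31.4 after 24 h. The values of these genes at the later times overlapped those at 6 h. ADAM19, by contrast, was at 47.8 and 24.3 TPM after 6 h, at 184 and 70.8 after 12 h and at 188 and 125 after 24 h. CGB8 stood at 14.2 and 18.1, at 35.5 and 38, and at 59.8 and 76.3 TPM. These last 2 genes were higher at 12 h than at 6 h in both replicates, with differences of 1.71 for ADAM19 and 1.15 for CGB8 that were not called (limma adjusted p = 0.114 and 0.267).

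The 12 h values of VIM, FN1 and COL4A2, picked after they were seen, were above those at 6 h within each replicate. VIM was at 2377 and 1861 TPM at 12 h, FN1 at 676 and 298 TPM and COL4A2 at 561 and 223 TPM. Their differences from 6 h were 0.83 (SE 0.19), 0.94 (SE 0.24) and 1.74 (SE 0.28), and none was called. The FN1 libraries of the 2 times overlapped, since its replicates differed. CDH1 was at 7.45 and 12.3 TPM at 12 h and at 2.26 and 6.31 TPM at 24 h, below all 6 h values. Among falls, TBL1X was at 19.2 TPM in 12 h replicate 1 and 6.77 TPM in replicate 2, so its replicates parted. GDF15 was at 9.38 and 8.02 TPM at 12 h. The 12 h libraries themselves differed, with 18946 genes at 1 TPM or more in replicate 1 and 16645 in replicate 2. The part of this in the 12 h values was not tested.

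**Figure D4:**
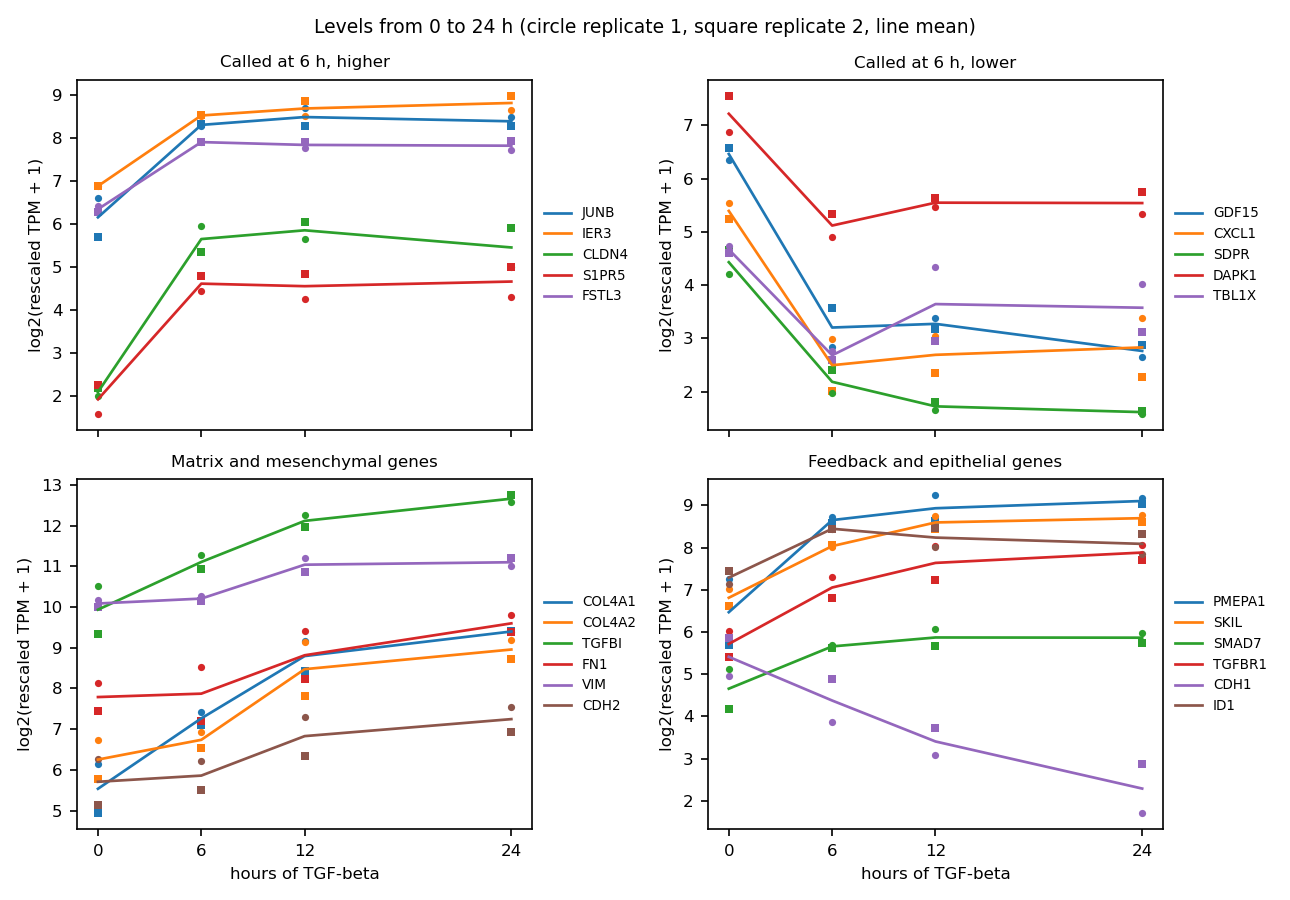
Level as log2(TPM + 1) against hours of TGF-beta (0, 6, 12 and 24 h) for genes called higher, genes called lower, matrix and mesenchymal genes, and feedback and epithelial genes. Circles are replicate 1, squares replicate 2 and lines join means. FSTL3 and S1PR5 are level after 6 h, while VIM lies near its 0 h level at 6 h and has both 12 h values above those at 6 h.

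Falling first responders came from longer genes, in the median, than rising ones; this is a description with no test over genes. Gene span, from first to last base with introns, was taken from GENCODE 29. The 57 protein-coding rises had a median span of 18.1 kb and 6 (10.5%) were over 100 kb. The 44 protein-coding falls had a median of 90.6 kb and 22 (50%) were over 100 kb. Of all 13589 tested protein-coding genes, 19.9% were over 100 kb and the median was 33.0 kb. Long genes among the falls, named after their values were seen, were PDE10A, a phosphodiesterase (660.8 kb), and NEDD4L, a ubiquitin ligase that acts on SMADs (357.2 kb). NEDD4L fell from 38.5 and 41.3 TPM to 12.1 and 17 TPM.

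The same order ran through all tested protein-coding genes averaging 5 TPM or more over the 16 libraries of the whole course. The median log2 fold change at 6 h was -0.004 for 1844 genes under 10 kb, -0.09 for 2959 of 10 to 30 kb, -0.19 for 3638 of 30 to 100 kb, -0.33 for 1729 of 100 to 300 kb and -0.46 for 350 over 300 kb. Each replicate gave this order, from -0.02 to -0.55 in replicate 1 and from 0.03 to -0.40 in replicate 2. From 6 to 12 h the medians ran the other way, from -0.08 under 10 kb to 0.50 over 300 kb, a difference that shares the 6 h libraries. At 24 h against 0 h they lay between -0.12 and -0.01. The share of genes called lower was 0.38%, 0.27%, 0.22%, 0.98% and 2.29% in these classes, from short to long, the last being 8 of 350 genes. The gap between the longest and shortest genes at 6 h was -0.46, and stayed between -0.66 and -0.29 over all alternatives and left-out libraries. The share of TPM in small RNAs was also higher at 6 h. At 12 h it was 42.5% in replicate 1 and 55.4% in replicate 2, and the medians from 6 to 12 h are not given per replicate. The part of this share in these patterns was not tested.

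**Figure D5:**
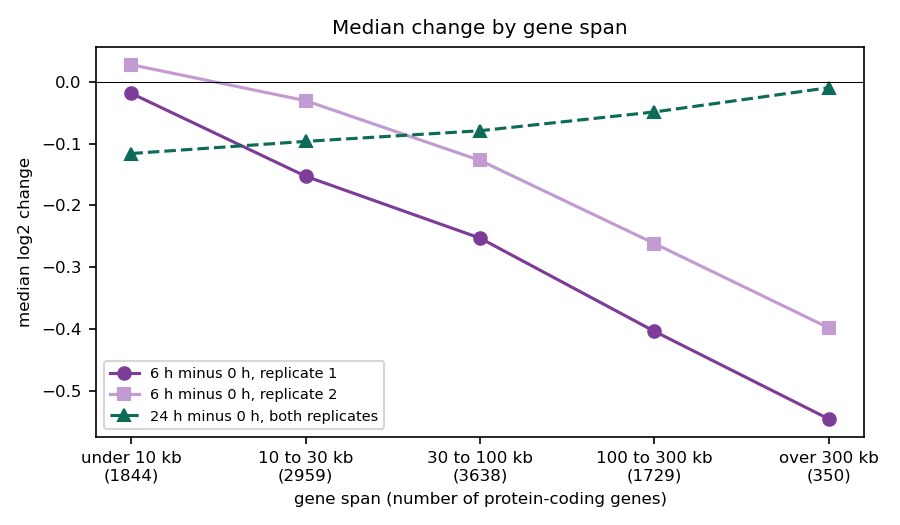
Median log2 change by gene span for protein-coding genes averaging 5 TPM or more over all 16 libraries, with the number of genes under each class. At 6 h both replicates run downward, to -0.55 and -0.40 over 300 kb, and the line for 24 h stays between -0.12 and -0.01.

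Some of the falls were non-coding genes. Of 57 falling first responders with a type in GENCODE 29, 13 (22.8%) did not encode protein, and of 58 rising ones 1 (1.72%), both below the 32.7% of all 20188 typed genes tested. Of these 13, 8 overlapped a tested protein-coding gene. The 10 genes so overlapped had fold changes of -2.24 to -0.48 on the log2 scale, where 72.8% of all tested genes were below 0. AC098617.1 (CAVIN2-AS1), antisense to SDPR, fell from 4.32 and 7.98 TPM to 0.76 and 1.05 TPM. AC096921.2, a pseudogene that overlaps TGFBR2, fell from 11.1 and 13.5 TPM to 1.17 and 3.75 TPM. RP11-434I12.2, antisense to the retinol dehydrogenase gene RDH10, fell from 2.35 and 3.28 TPM to 0.0507 and 0.366 TPM, and RDH10 fell from 22.9 and 46.1 TPM to 7.24 and 11.6 TPM. Whether counting used strand is not given in the sources used here, so reads of each pair cannot be told apart, and these non-coding values are uncertain. RP11-215G15.5 fell from 9.24 and 11.8 TPM to 0.684 and 1.60 TPM and had no match in GENCODE 29.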

How the data were processed

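Trizol RNA went into Illumina TruSeq libraries, per the labels' protocols. For 16 libraries the authors deposited TPM per gene. Bowtie and RSEM are named, per the submitters' processing notes, without versions. The build and the annotation release are not stated in the labels or headers used here. From the TPM of 57773 genes, RN7SL1, RN7SL2, RN7SL3, RN7SK, RMRP and RPPH1 were dropped and each library rescaled to sum to 1000000. Genes reaching 1 TPM in 2 or more of the 16 libraries were tested as log2(TPM + 1), which understates changes of low genes. limma 3.58.1 (R 4.3.3) fitted 1 mean per time and the replicate number as a block, with a mean trend (7 residual degrees of freedom, two-sided). The fit was run on simulated data with known changes and independent errors, which checks the computation and not the assumptions of the model. An exact test of 2 against 2 cannot go below p = 0.333, so none was used. The block was used because 6 h was compared with 0 h within each replicate number. No label calls a number a shared batch. Members and the 42 gene lists were chosen with earlier results of these data known. The genes named are 30 set genes, the 12 largest rises and falls among first responders with a mean of at least 5 TPM, and up to 3 called genes per list and direction; others, named for their values, were chosen after those were seen. Some genes under this rule are not reported here. Names and spans came from GENCODE 29, by gene identifier, and 51996 identifiers matched a current name.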

Additional observations from a re-analysis of the deposited data

How the results depend on the processing

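With 2 libraries per time and unknown depth, which genes pass is unstable. The calls higher, calls lower, first responders higher and first responders lower numbered 74, 67, 58 and 58. Without the replicate block these were 5, 2, 5 and 2; on TPM as deposited 4, 8, 4 and 8; with no filter on low values 30, 50, 9 and 8; and with only the 0 h and 6 h libraries and the block (1 residual degree of freedom) 893, 4283, 179 and 740. Centred libraries gave 154 calls higher and 117 first responders higher. A pseudocount of 0.1 gave 44 calls lower and 36 first responders lower, and ANGPTL4 then missed the threshold. ANGPTL4 also missed it without 36 h replicate 2 and 48 h replicate 2, which left 38 calls higher and 35 first responders higher. Those libraries had 36116 and 36294 genes listed at 0, against 29278 to 31187 in the other libraries. Leaving out 1 library gave 0 to 5 calls higher, 0 to 2 lower, 0 to 5 first responders higher and 0 to 2 lower. Chosen after seeing the data, centring without the block gave 7, 3, 7 and 3. The causes were not tested. Deviations of same-numbered libraries from their time means had a correlation above 0.1 in 27 of 28 pairs of times (lowest 0.0734), a hint from the data that the numbers pair the libraries. For 12 h against 6 h, 1 gene was called without the replicate block, 35 without a filter, 567 with those times alone and 0 to 2 with 1 library left out. Of the 141 called genes, 132 stayed called with centred libraries and 107 with a pseudocount of 0.1. Without 36 h replicate 2 and 48 h replicate 2, 74 stayed called. Those tested kept their direction in every alternative. Over genes named, lists and the span gap, 1762 values under alternatives were graded the same as in the main fit. A further 604 were graded weaker, 49 stronger and 154 moved. Some list medians near 0 changed sign. With centred libraries the median of secreted ligands and antagonists went from -0.06 to 0.10, and that of glycolysis and hypoxia genes from -0.03 to 0.11.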

Other observations

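Clock genes other than PER2 were looked at because PER2 was called, and none passed the test. PER1 was at 5.44 and 4.21 TPM at 0 h, and 6 h gave 0.557 and 0.938 TPM (-1.74 ± 0.39 (SE) on the log2 scale, limma adjusted p = 0.0718). PER3 was at 4.13 and 4.64 TPM and then at 0.836 and 1.67 TPM, and NR1D1, a repressor of the clock, at 1.93 and 1.60 TPM and then at 0.633 and 0.275 TPM. CRY1, the partner of PER proteins, was at 15.5 and 13.6 TPM and then at 23.2 and 21.3 TPM, on the other side of 0. No untreated cultures were sampled at 6 h, so TGF-beta and time in culture cannot be told apart.

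Several first responders outside the lists were chosen after their values were seen, and some of them encode surface or signalling proteins. TNFRSF12A, the receptor of the cytokine TWEAK, rose from 185 and 152 TPM to 647 and 628 TPM (1.92 ± 0.31 (SE) on the log2 scale, limma adjusted p = 0.0316). F3, tissue factor, which starts blood clotting, rose from 5.60 and 2.59 TPM to 23.4 and 16 TPM. P2RY2, a nucleotide receptor, rose from 4.30 and 2.74 TPM to 21.6 and 21 TPM (limma adjusted p = 0.00917). FURIN, the protease that matures the TGF-beta precursor, rose from 29.2 and 21.2 TPM to 76.7 and 64.3 TPM (1.46 ± 0.23 (SE) on the log2 scale, limma adjusted p = 0.0262). TFEB, a regulator of lysosome genes, rose from 3.61 and 3.79 TPM to 13.0 and 12.5 TPM. Among falls, ELOVL6, a fatty acid elongase, went from 36.7 and 29.8 TPM to 9.98 and 9.91 TPM. CYP1B1, a cytochrome P450, fell from 23.6 and 55.1 TPM to 8.59 and 20.4 TPM. All 0 h and 6 h values of these genes were apart.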
